A study of Mus musculus with 4 samples.

Results

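Nucleoporins and nuclear transport receptors are the proteins that build the nuclear pore and carry cargo through it. They were followed here as 40 genes of the 18193 that the arrays name from probe sets of 1 gene. A gene was a member if its annotated symbol was that of a numbered nucleoporin (Nup), Ranbp2, Tpr, a karyopherin alpha (Kpna), Kpnb1, a numbered importin (Ipo) or an exportin (Xpo), and the probe set with the highest mean signal over the 4 arrays stood for it. Of the 40 members, 19 nucleoporins, 13 importins and 6 exportins were above a signal floor of 100.001 on at least 1 array, and 37 were above it on all 4. The floor is 20% of each array's trimmed mean, and signals under it have no order. Kpna7 and Nup210l were under the floor on all 4 arrays. Tpr and Nup35 are not analysed here.

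The series holds 4 cultures of p53-/- mouse fetal liver progenitors, each measured on 1 Affymetrix array: cells transformed with H-RasV12 (constitutively active H-Ras), with myr-Akt (AKT1 carrying a membrane-anchoring myristoyl group) or with c-Myc (a transcription factor), and non-transformed cells. All 4 cultures thus lack p53, and per the labels' protocols all grew with serum, dexamethasone, EGF and HGF. The sources used here do not say how the oncogenes were delivered or whether a culture is a clone or a pool. With 1 array a group, no difference below has a replicate check, a standard error or a p-value. The 3 comparisons with non-transformed cells share that 1 control array.

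The nuclear pore is a ring of stacked scaffolds set in the nuclear envelope. Its channel is filled by nucleoporins rich in phenylalanine-glycine (FG) repeats, which let transport receptors pass and hold back most other large molecules. Importins bind cargo in the cytoplasm and release it in the nucleus on binding Ran-GTP, whereas exportins load cargo together with Ran-GTP and release it in the cytoplasm. Pores are taken apart and rebuilt at each division of a mammalian cell, and new ones are added as the nucleus grows.

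The c-Myc and myr-Akt labels were set against the signals of Myc and Akt1. Myc had a signal of 1747 on the H-RasV12 array, 639.7 on the myr-Akt array and 420.6 on the c-Myc array, against 2285 in non-transformed cells, so it was lowest on the array that carries its name, and it is unknown here whether its probe set can detect the introduced sequence. Akt1 had a signal of 2760.3 on the H-RasV12 array, 2834 on the myr-Akt array and 2991 on the c-Myc array, against 1870.1 in non-transformed cells, so it did not stand out on the myr-Akt array and was highest on the c-Myc array, and whether its probe set detects the introduced form is likewise unknown. Myc and Akt1 were looked up after values were seen, and no Hras signal is given here. Each direction given for a transformed culture therefore rests on its label. Of 10 liver progenitor markers, 9 were above the floor on the H-RasV12 array, 4 on the myr-Akt array and 3 on the c-Myc array. In non-transformed cells 6 were, with the hepatoblast markers Afp, Alb, Hnf4a and Ttr all under it. Dlk1, of the same list, was above it on all 4 arrays. Its signal was 262.4, 145.1 and 1898 in H-RasV12, myr-Akt and c-Myc cells, against 116.7 in non-transformed cells, or 16.3 times higher in c-Myc cells. By gene, 6, 0 and 1 of the 10 were at least 2-fold higher in H-RasV12, myr-Akt and c-Myc cells, and 0, 3 and 3 lower. All 8 mesenchymal and stellate markers were above the floor in H-RasV12 and non-transformed cells, with 7 in myr-Akt and 6 in c-Myc cells, and their summed signal was 89257, 80538 and 67638 in the 3 transformed cultures, against 131615 in non-transformed cells. Most of each sum was Vim, Acta2 and Col1a2, and by gene the median log2 difference was -1.14, -0.80 and -1.73, with 4, 3 and 4 of the 8 at least 2-fold lower. Dcn had a signal of 172.2, 9524 and 7765 in H-RasV12, myr-Akt and c-Myc cells, against 10469 in non-transformed cells, and was thus far lower in H-RasV12 cells alone. Col3a1 stood at 5255, 15137 and 11166 in H-RasV12, myr-Akt and c-Myc cells, against 20989 in non-transformed cells. Other markers of this list were highest in H-RasV12 cells among the transformed cultures. Col1a2 had 21412, 15479 and 3578, and Pdgfrb 554.8 in H-RasV12 cells, with myr-Akt and c-Myc cells under the floor. Of the 8, 3 were at least 2-fold higher and 2 lower in H-RasV12 than in c-Myc cells. Against myr-Akt cells 2 were higher and 2 lower. Of 4 mesothelial markers, 4, 1 and 1 were at least 2-fold lower in H-RasV12, myr-Akt and c-Myc cells, with median log2 differences of -2.44, -0.29 and -0.38, and their summed signal was 6005, 18536 and 16987 in these cultures, against 28544 in non-transformed cells. Upk3b and Lrrn4 were low in H-RasV12 cells, where Lrrn4 was under the floor, and Msln was low in myr-Akt and c-Myc cells, with 3096, 238.3 and 348.0 in H-RasV12, myr-Akt and c-Myc cells, against 7836 in non-transformed cells. The part of a changed cell mix in the results below was not tested, and in RNA of a whole culture fewer cells of a type cannot be told apart from less RNA per cell.

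Most members had a higher signal in each transformed culture than in non-transformed cells, by amounts mostly under 2-fold. The median log2 difference of the 38 members above the floor was 0.45 in H-RasV12, 0.63 in myr-Akt and 0.59 in c-Myc cells, beside 0.00, -0.01 and 0.00 for all 10679 genes above the floor on at least 1 array. At least 1.5-fold higher were 9 of 38 members in H-RasV12 cells, where 8.87% of all genes were, 21 in myr-Akt cells (16.3% of all genes) and 19 in c-Myc cells (15.3% of all genes). No member was 1.5-fold lower in any of the 3, whereas 13.7%, 22.5% and 20.4% of all genes were. The plot of cumulative distributions shows that this is a shift of most members rather than a few large changes.

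**Figure D1:**
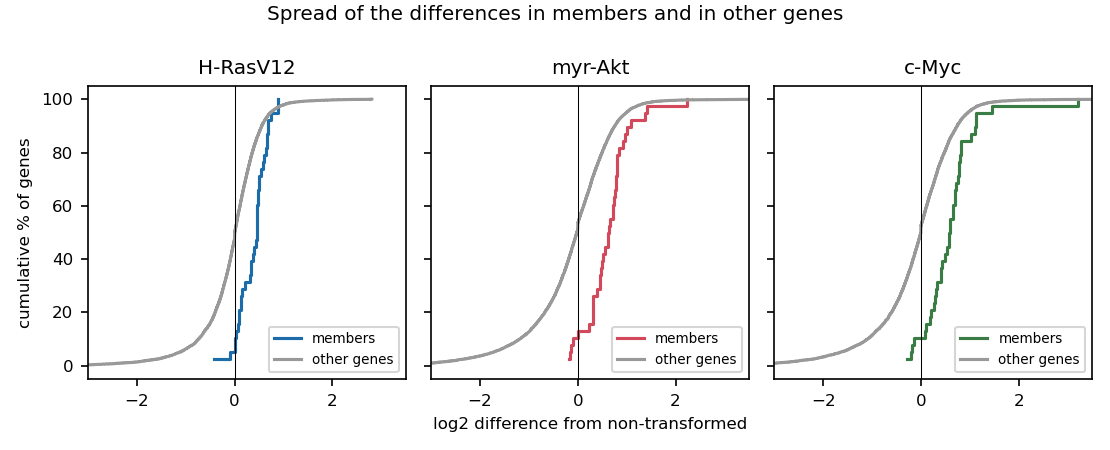
Cumulative percentage of genes (y axis) against the log2 difference from non-transformed cells (x axis) for the 38 members (coloured) and the other genes above the floor (grey), with 1 panel for each transformed culture. The members' curve lies to the right of the grey curve over most of its length, with medians of 0.45, 0.63 and 0.59.

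At the 2-fold mark the counts were small. In H-RasV12 cells 0 of 38 members were at least 2-fold higher (2.08% of all genes) and 0 lower (6.27%). In myr-Akt cells 5 were higher (4.9% of all genes) and 0 lower (12.7%). In c-Myc cells 6 were higher (4.42% of all genes) and 0 lower (11.3%). The 6 genes of the last count were Nup210, Xpo4, Nup43, Nup85, Nup133 and Nup153, and in myr-Akt cells the same genes except Nup133 passed the mark. Nup210 entered the measured set only through the myr-Akt and c-Myc arrays, and without it the counts were 4 and 5 of 37 members, with medians of 0.62 and 0.58.

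**Figure D2:**
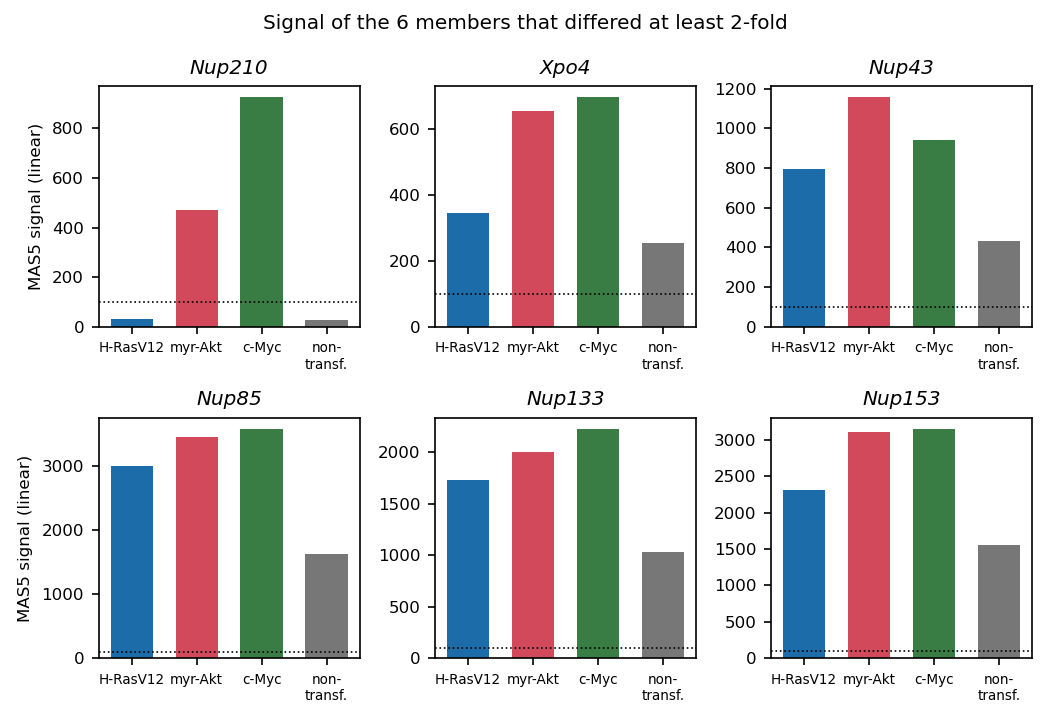
Deposited signal (y axis, linear, from 0, scaled per gene) of the 6 members that differed at least 2-fold from non-transformed cells, with 1 bar for each array and a dotted line at the floor. Nup210 stands out by being under the floor on 2 arrays, whereas the other 5 were above it on all 4.

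Nup210, a glycoprotein of the pore membrane with most of its mass in the lumen of the nuclear envelope, was the member with the largest difference. Its signal was 29.8 on the H-RasV12 array, 472.2 on the myr-Akt array and 924.7 on the c-Myc array, against 26.5 in non-transformed cells. It was thus under the floor in H-RasV12 and non-transformed cells and above it in myr-Akt and c-Myc cells. Against the floor the signal was at least 4.72-fold higher in myr-Akt cells and at least 9.25-fold higher in c-Myc cells, and between these cultures it was lower in myr-Akt cells by a log2 difference of -0.97. No fold is given for H-RasV12 cells, since both values were under the floor. A further Nup210 probe set was under the floor on all 4 arrays and adds nothing.

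The outer scaffold of the pore is the Y complex. Its subunits Nup107, Nup133, Nup160, Nup85, Nup37 and Nup43 are members and were all measured. All 6 were higher in each transformed culture, with median log2 differences of 0.71 in H-RasV12, 0.88 in myr-Akt and 0.96 in c-Myc cells. Sec13 and Seh1l, further subunits, fall outside the rule. In H-RasV12, myr-Akt and c-Myc cells Sec13 had log2 differences of -0.02, -0.09 and -0.24. Seh1l had 0.24, 0.78 and 0.58. Nup43, a beta-propeller subunit of a short arm of the Y, had a signal of 794.6, 1156 and 941.6 in H-RasV12, myr-Akt and c-Myc cells, against 432.1 in non-transformed cells, or 1.84, 2.67 and 2.18 times higher. It was thus highest on the myr-Akt array, with non-transformed cells well below the other 3. With a pseudocount instead of the floor, its log2 difference in c-Myc cells was 0.97, just short of 2-fold.

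Nup85, another subunit of the Y, had a signal of 3008, 3448 and 3580.4 in H-RasV12, myr-Akt and c-Myc cells, against 1629 in non-transformed cells. These are log2 differences of 0.88, 1.08 and 1.14, and a dimmer probe set gave 0.35, 1.07 and 1.49. Nup133, at the foot of the Y where neighbouring complexes meet, had a signal of 1729, 2001 and 2227 in H-RasV12, myr-Akt and c-Myc cells, against 1031 in non-transformed cells, with log2 differences of 0.75, 0.96 and 1.11. Its second probe set gave 0.89, 0.76 and 0.94, and a dimmer one 0.54, 1.09 and 0.74, past 2-fold in myr-Akt cells. The mean over its probe sets was 0.93 in c-Myc cells, under the 2-fold mark. Nup107, the partner of Nup133, stood at 2071, 2280.1 and 2280.4 in H-RasV12, myr-Akt and c-Myc cells, against 1301 in non-transformed cells, nearly level in the 3 transformed cultures. Nup160 and Nup37 had log2 differences of 0.31, 0.62 and 0.69 and of 0.44, 0.50 and 0.78, in the order H-RasV12, myr-Akt and c-Myc, which is kept below. Among the 6 members of this complex, c-Myc cells had the highest signal for 5, with Nup107 in myr-Akt cells within 0.01 on the log2 scale. Nup43 was the exception.

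Genes of the inner ring, the scaffold that lines the channel, had medians of 0.52, 0.61 and 0.59 over 4 members. Nup93, which anchors the FG nucleoporins of the channel, had a signal of 2499.8, 2626 and 2201 in H-RasV12, myr-Akt and c-Myc cells, against 1561 in non-transformed cells, and was the only one of the 4 lowest among transformed cells on the c-Myc array. Nup155, which contacts the membrane, had log2 differences of 0.40, 0.71 and 0.81, and a dimmer probe set gave 0.42, 0.41 and 0.57. Nup205, the brightest of the 4, had a signal of 4496, 4087 and 4635 in H-RasV12, myr-Akt and c-Myc cells, against 2878 in non-transformed cells, with log2 differences of 0.64, 0.51 and 0.69. Nup188, a paralogue of Nup205, differed least, at 1094, 1031 and 1239 in H-RasV12, myr-Akt and c-Myc cells, against 1022 in non-transformed cells, a spread of 1.21-fold at most.

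By their brightest probe sets, FG nucleoporins of the central channel were higher in all 3 cultures. Nup62, the central subunit of the channel, had a signal of 11363, 14458 and 11679.8 in H-RasV12, myr-Akt and c-Myc cells, against 8091 in non-transformed cells, with log2 differences of 0.49, 0.84 and 0.53. Its next brightest probe set gave 0.54, 1.15 and 0.87, and the other 2 gave 1.08 and 1.05 in myr-Akt cells, so all 3 were past 2-fold there. Nup54, which binds Nup62, had 0.60, 0.80 and 0.77, and its next brightest probe set gave 0.77, 0.97 and 0.92. A dimmer one gave 0.01, 0.75 and 1.17, so by it H-RasV12 cells were level with non-transformed ones and c-Myc cells were past 2-fold. Nup98, whose precursor also yields the Y complex subunit Nup96, had a signal of 3624, 3611 and 3548 in H-RasV12, myr-Akt and c-Myc cells, against 2635 in non-transformed cells, nearly the same in the 3 transformed cultures by this probe set. A dimmer one had 730.0, 460.9 and 521.9 in H-RasV12, myr-Akt and c-Myc cells, against 452.7 in non-transformed cells, so that by it H-RasV12 cells were highest and myr-Akt cells near non-transformed ones.

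By the brightest probe sets, the cytoplasmic side of the pore differed least among the structural groups with more than 1 member. Nup214, Nup88 and Ranbp2 had medians of 0.34, 0.31 and 0.19, and none was 1.5-fold higher in any culture. Nup214, an FG nucleoporin, had a signal of 1161, 1105 and 1116 in H-RasV12, myr-Akt and c-Myc cells, against 890.4 in non-transformed cells, with log2 differences of 0.38, 0.31 and 0.33. Its dimmer probe set gave 0.95, 0.76 and 0.55, past 1.5-fold in H-RasV12 and myr-Akt cells. Ranbp2, the filament protein that docks the Ran GTPase-activating protein, had a signal of 2736, 3156 and 3058 in H-RasV12, myr-Akt and c-Myc cells, against 2676 in non-transformed cells, nearly level in all 4. Its next brightest probe set had 1982, 2660.4 and 2451 in H-RasV12, myr-Akt and c-Myc cells, against 1752 in non-transformed cells, which is 1.52 times higher in myr-Akt cells, and the one after gave log2 differences of 0.50, 0.23 and -0.28. Nup88, the partner of Nup214, stood at 4384, 4856 and 3692 in H-RasV12, myr-Akt and c-Myc cells, against 3471 in non-transformed cells, so c-Myc and non-transformed cells were close to each other.

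On the nuclear side, Nup153, an FG nucleoporin of the basket that also takes part in pore assembly, had a signal of 2314, 3108 and 3149 in H-RasV12, myr-Akt and c-Myc cells, against 1553 in non-transformed cells. It was 2 times higher in myr-Akt and 2.03 times in c-Myc cells, at the edge of the 2-fold mark, and this rests on 1 probe set. A dimmer one gave log2 differences of 0.31 and 0.49, the mean over probe sets 0.65 and 0.64, and quantile normalization 0.96 and 0.98. Nup50, a mobile basket protein that helps recycle importin alpha, had 0.68, 0.64 and 0.41 by its brightest probe set and 0.69, 0.45 and -0.14 by the next, so its direction in c-Myc cells depended on the probe set.

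**Figure D3:**
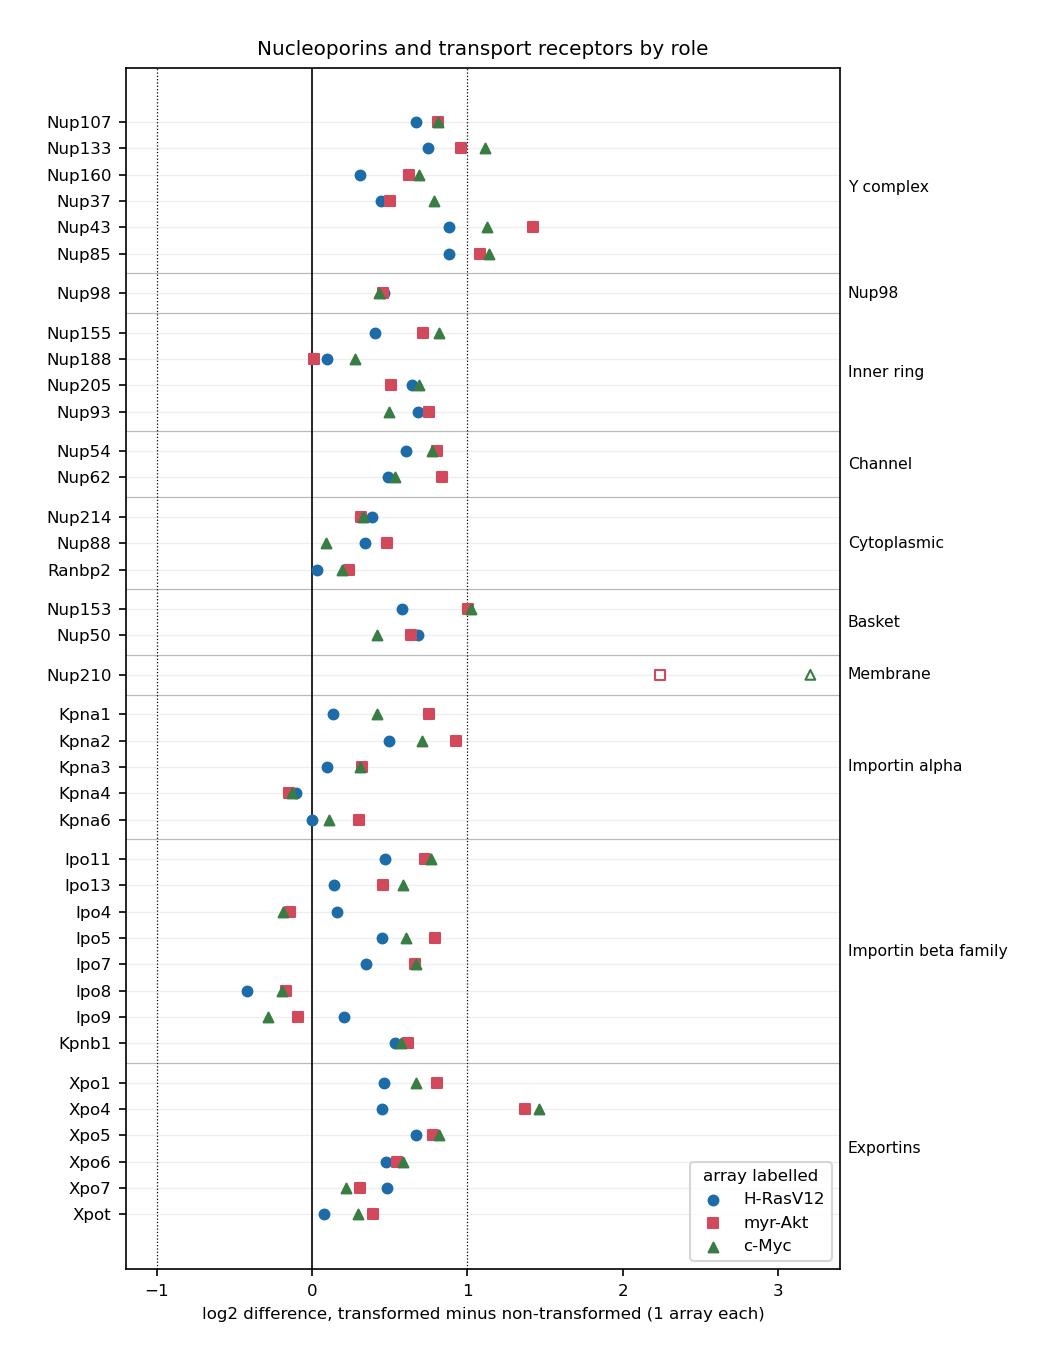
Log2 difference from non-transformed cells (x axis) for each of the 38 members above the floor (y axis), grouped by role, with 1 marker for each transformed culture and dotted lines at 2-fold. Open markers are lower bounds, and values with both arrays under the floor are not drawn. The Y complex members lie to the right of zero in all 3 cultures, the cytoplasmic group close to zero, and Kpna4 and Ipo8 slightly to its left.

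Importin alpha proteins are adaptors that recognise the classical nuclear localisation signal and bind Kpnb1. Their 5 measured paralogues differed from each other. Kpna2, the paralogue most tied to proliferating cells, had a signal of 10402, 14032 and 12057 in H-RasV12, myr-Akt and c-Myc cells, against 7376 in non-transformed cells, with log2 differences of 0.50, 0.93 and 0.71. Kpna1 had 1446, 2216 and 1759 in H-RasV12, myr-Akt and c-Myc cells, against 1315 in non-transformed cells, so it was highest in myr-Akt cells and H-RasV12 cells were near non-transformed ones. Kpna4 had 2312, 2232 and 2268 in H-RasV12, myr-Akt and c-Myc cells, against 2483 in non-transformed cells, a log2 difference of -0.10, -0.15 and -0.13. Kpna6 had 938.3, 1158 and 1014 in H-RasV12, myr-Akt and c-Myc cells, against 939.1 in non-transformed cells, so H-RasV12 and non-transformed cells were level.

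Kpna3 was the member whose brightest and next brightest probe sets disagreed most in myr-Akt and c-Myc cells against non-transformed cells, with Ipo7 taking that place in H-RasV12 cells. The brightest gave 1932, 2255 and 2234 in H-RasV12, myr-Akt and c-Myc cells, against 1806 in non-transformed cells, and the next brightest 689.3, 1385 and 1337 in H-RasV12, myr-Akt and c-Myc cells, against 416.0 in non-transformed cells. The second is 1.66, 3.33 and 3.21 times higher, against 1.07, 1.25 and 1.24 times for the first, and a dimmer probe set lay between them at log2 differences of 0.45, 0.80 and 0.71. All 3 put myr-Akt and c-Myc cells above H-RasV12 cells.

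Kpnb1, or importin beta 1, carries importin alpha with its cargo through the pore and stood at 6592, 6987 and 6781 in H-RasV12, myr-Akt and c-Myc cells, against 4565 in non-transformed cells. Its log2 differences, 0.53, 0.61 and 0.57, were nearly equal, and those of the next probe set were 0.57, 0.43 and 0.45, whereas a dimmer one gave -0.12, 0.22 and 0.24. Among the importins that bind cargo directly, Ipo5 and Ipo7, which carry ribosomal proteins among other cargo, had log2 differences of 0.45, 0.79 and 0.60 and of 0.34, 0.66 and 0.67. Ipo7, the brightest of this group, had a signal of 8251, 10284 and 10322 in H-RasV12, myr-Akt and c-Myc cells, against 6502 in non-transformed cells. Its dimmer probe set, close to the floor in non-transformed cells, had 230.7, 225.9 and 182.4 in H-RasV12, myr-Akt and c-Myc cells, against 115.9 in non-transformed cells, which is 1.99 times higher in H-RasV12 cells, against 1.27 times by the brightest. Ipo11 had 0.47, 0.73 and 0.77, and Ipo13, which works in both directions, 0.14, 0.46 and 0.58. Against these, Ipo8, Ipo9 and Ipo4 were near or below the non-transformed signal. Ipo8 had 884.2, 1051 and 1034 in H-RasV12, myr-Akt and c-Myc cells, against 1183 in non-transformed cells, and was the only member lower by more than 0.2 on the log2 scale in H-RasV12 cells. Ipo9, a carrier of histones H2A and H2B, had 3151, 2574 and 2245 in H-RasV12, myr-Akt and c-Myc cells, against 2738 in non-transformed cells, with H-RasV12 cells highest. Its next probe set gave log2 differences of 0.12, -0.14 and -0.19, and a dimmer one 0.37, 0.51 and 0.32, so its direction in myr-Akt and c-Myc cells depended on the probe set. Ipo4 had log2 differences of 0.16, -0.15 and -0.19, which its next brightest probe set put at 0.17, 0.02 and 0.03.

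All 6 exportins were higher in each transformed culture, with medians of 0.47, 0.66 and 0.63. Xpo4, which exports the translation factor eIF5A, differed most, with a signal of 345.1, 655.1 and 695.3 in H-RasV12, myr-Akt and c-Myc cells, against 253.0 in non-transformed cells. It was 2.59 times higher in myr-Akt and 2.75 times in c-Myc cells, and 1.36 times in H-RasV12 cells. The mean over its probe sets, some of them near the floor, gave log2 differences of 0.75 and 0.60 for the first 2, under the 2-fold mark. Xpo1 (CRM1), the receptor for leucine-rich export signals, stood at 6019, 7636 and 6945 in H-RasV12, myr-Akt and c-Myc cells, against 4376 in non-transformed cells, with 0.46, 0.80 and 0.67 on the log2 scale. Xpo5, which exports microRNA precursors, had 1327, 1427 and 1467 in H-RasV12, myr-Akt and c-Myc cells, against 833.4 in non-transformed cells, or log2 differences of 0.67, 0.78 and 0.82. Xpo6, the exporter of actin, had 1359, 1428 and 1466 in H-RasV12, myr-Akt and c-Myc cells, against 976.6 in non-transformed cells, or 0.48, 0.55 and 0.59. The tRNA exporter Xpot had 4523, 5632 and 5266 in H-RasV12, myr-Akt and c-Myc cells, against 4285 in non-transformed cells, with the smallest difference of the 6 in H-RasV12 cells. Xpo7 had 3339, 2958 and 2779.9 in H-RasV12, myr-Akt and c-Myc cells, against 2393 in non-transformed cells, or 0.48, 0.31 and 0.22, and was the exportin with its highest signal in H-RasV12 cells.

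Of the 40 members, 23 had a second probe set above the floor on all 4 arrays. Over these genes, the brightest probe sets had median log2 differences of 0.46, 0.66 and 0.53, and the second 0.52, 0.57 and 0.55. The direction was shared by 22, 22 and 21 of the 23 genes, and the median gap between the 2 probe sets was 0.15, 0.20 and 0.17. Probe sets of 1 gene read the same RNA sample, so they check the probe and not the culture. The second probe set was at least 2-fold higher for 0, 4 and 3 genes, and both were for 0, 2 and 2.

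**Figure D4:**
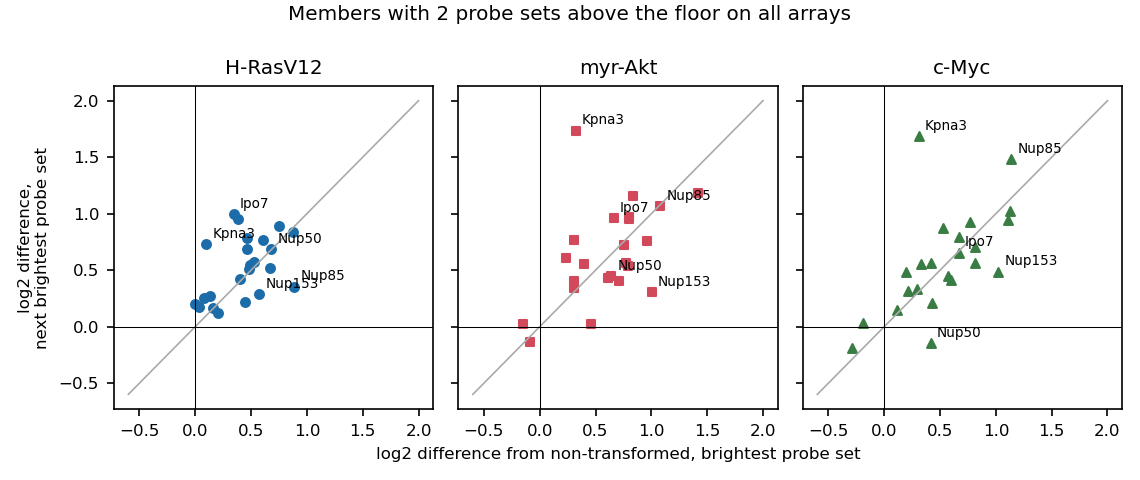
Log2 difference from non-transformed cells by the next brightest probe set (y axis) against that by the brightest (x axis) for the 23 members with both above the floor on all arrays, with 1 panel for each transformed culture and a line of equality. Most points lie above and to the right of zero, with Kpna3 far above the line in myr-Akt and c-Myc cells.

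Compared directly, the transformed cultures had smaller median differences of members from each other than from non-transformed cells. Between H-RasV12 and myr-Akt cells the members' median log2 difference was -0.21, and between H-RasV12 and c-Myc cells -0.17, with 0.00 over all genes in both cases. In H-RasV12 against myr-Akt cells 0 members were 2-fold higher (9.35% of all genes) and 1, Nup210, was lower (4.38%). In H-RasV12 against c-Myc cells 0 were higher (8.76%) and 2 were lower (5.11%), namely Nup210, whose value is a bound, and Xpo4 at -1.01. The Xpo4 value was -0.97 with scaling to the median, -0.84 with a pseudocount and -0.45 with the mean over probe sets, all short of 2-fold. Some dimmer probe sets passed 2-fold where the brightest of their gene did not. In H-RasV12 against c-Myc cells, 1 of Nup85 gave -1.13 and 1 of Nup54 -1.16, against -0.25 and -0.17 by the brightest. In H-RasV12 against myr-Akt cells, the next brightest of Kpna3 gave -1.01, against -0.22 by the brightest. Xpo4 was also lower in H-RasV12 than in myr-Akt cells, by -0.93 on the log2 scale, Kpna1 by -0.62 and Nup43 by -0.54. Higher in H-RasV12 than in c-Myc cells were Ipo9 at 0.49 and Ipo4 at 0.35.

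Between myr-Akt and c-Myc cells the median was 0.02, and 0 members were 2-fold higher (1.53% of all genes) or lower (2.01%). Nup210 was the farthest, just short of the mark, and on the other side Nup88 was higher in myr-Akt cells by 0.40, Kpna1 by 0.33 and Nup62 by 0.31. At the 1.5-fold mark, 0 members were higher (17% of all genes) and 3 lower (12.1%) in H-RasV12 against myr-Akt cells. In H-RasV12 against c-Myc cells 0 were higher (15.9%) and 2 lower (12.5%), and in myr-Akt against c-Myc cells 0 were higher (4.53%) and 1 lower (6.19%).

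Promoters were looked at because c-Myc, paired with MAX, binds the E-box CACGTG. The RefSeq table of build GRCm38.p6 holds windows of 300 bases for 32 of the 40 members, some with more than 1. Each runs from 250 before a start site to 50 after it. A gene counted as holding CACGTG if any of its windows did. CACGTG, which reads the same on both strands, was found in the windows of 7 members (21.9%), namely Nup188, Nup54, Nup93, Ranbp2, Ipo7, Ipo4 and Xpot, beside 12.2% of the genes above the floor and 8.09% of all genes in the table. The 7 members with the motif had median log2 differences of 0.16, 0.39 and 0.30. The 24 measured members with windows but no match had 0.46, 0.63 and 0.63. The windows of 4 members are shown to set these side by side, written 5′ to 3′ along the gene with CACGTG in capitals. Nup188 (chr2:30286166-30286465, plus strand) has 2 matches and log2 differences of 0.10, 0.01 and 0.28. Nup54 (chr5:92435150-92435449, minus strand) and Ipo7 (chr7:110018065-110018364, plus strand) have 1 match and middling differences. Nup210 (chr6:91116777-91117076, minus strand) has none and the largest difference.
Nup188: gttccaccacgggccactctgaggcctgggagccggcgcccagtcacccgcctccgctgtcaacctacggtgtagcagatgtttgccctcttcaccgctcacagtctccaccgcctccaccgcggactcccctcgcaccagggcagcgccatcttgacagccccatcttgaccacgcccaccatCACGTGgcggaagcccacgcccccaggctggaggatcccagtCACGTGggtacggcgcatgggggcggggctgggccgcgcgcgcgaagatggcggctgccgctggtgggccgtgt
Nup54: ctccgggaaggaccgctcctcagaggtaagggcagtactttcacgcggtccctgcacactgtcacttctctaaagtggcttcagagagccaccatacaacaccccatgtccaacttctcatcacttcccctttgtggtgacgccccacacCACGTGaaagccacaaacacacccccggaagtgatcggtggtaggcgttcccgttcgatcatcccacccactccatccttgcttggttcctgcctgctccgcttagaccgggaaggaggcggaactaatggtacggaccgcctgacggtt
Ipo7: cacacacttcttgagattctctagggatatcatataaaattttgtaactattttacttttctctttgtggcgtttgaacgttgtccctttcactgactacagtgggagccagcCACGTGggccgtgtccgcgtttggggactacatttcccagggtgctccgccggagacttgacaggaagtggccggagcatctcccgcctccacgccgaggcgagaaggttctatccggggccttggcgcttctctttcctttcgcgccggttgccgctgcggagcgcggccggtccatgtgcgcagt
Nup210: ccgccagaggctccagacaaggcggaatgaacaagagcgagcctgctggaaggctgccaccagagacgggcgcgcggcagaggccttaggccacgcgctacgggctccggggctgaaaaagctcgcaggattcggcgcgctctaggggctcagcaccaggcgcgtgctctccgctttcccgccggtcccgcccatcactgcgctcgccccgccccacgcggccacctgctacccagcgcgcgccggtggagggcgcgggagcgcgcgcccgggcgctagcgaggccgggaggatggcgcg
The first bases of the matches lie 66 and 24 bases before the start site in Nup188, 100 before it in Nup54 and 137 before it in Ipo7. These 4 members were chosen by their matches and differences and do not stand for the rest. Nup93, with a match in 1 of its windows and none in another, had log2 differences of 0.68, 0.75 and 0.50. Ipo8, without a match, had -0.42, -0.17 and -0.20. A match of these letters describes the window and is no measure of binding.

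Lists of other genes of the same machinery had medians above 0 in each transformed culture, and in H-RasV12 cells these were lower than the members' 0.45. In the Ran cycle, all 5 genes were higher in each transformed culture, with medians of 0.44, 0.58 and 0.53. Rcc1, the exchange factor that loads Ran with GTP on chromatin, had 1258, 1805 and 1950.4 in H-RasV12, myr-Akt and c-Myc cells, against 694.2 in non-transformed cells, and was 1.81, 2.6 and 2.81 times higher. It was the 1 gene of this list past 2-fold, in myr-Akt and c-Myc cells, while Ran itself had log2 differences of 0.36, 0.57 and 0.34. Pore proteins without a Nup number had medians of 0.21, 0.73 and 0.56 over 8 genes. Ndc1, a membrane protein of the pore, had 1103, 1309 and 1062 in H-RasV12, myr-Akt and c-Myc cells, against 565.7 in non-transformed cells and was past 2-fold in myr-Akt cells, whereas Sec13, which also serves in vesicle coats, had -0.02, -0.09 and -0.24. Aaas, a pore protein named aladin, had -0.03, -0.35 and -0.20, and Gle1, an mRNA export factor on the cytoplasmic side, -0.06, -0.10 and 0.25. Nupl1 and Nupl2, the annotation's symbols for Nup58 and Nup42, fall outside the rule and were added after values were seen. They had 0.19, 0.54 and 0.60 and -0.29, -0.35 and -0.32.

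Receptors outside the rule had medians of 0.26, 0.55 and 0.51 over 8 measured genes, with Cse1l, the exportin that returns importin alpha to the cytoplasm, at 7055, 8549 and 7912 in H-RasV12, myr-Akt and c-Myc cells, against 4214 in non-transformed cells. Snupn, the import adaptor of spliceosomal snRNPs, had 416.8, 658.9 and 473.0 in H-RasV12, myr-Akt and c-Myc cells, against 603.4 in non-transformed cells, and was lower in H-RasV12 and c-Myc cells. The 13 measured genes of mRNA export had medians of 0.33, 0.46 and 0.38, and 0, 2 and 1 were past 2-fold. Ddx39a, an RNA helicase, had log2 differences of 0.60, 1.18 and 1.23, and Thoc1, a subunit of the THO complex, of 0.73, 1.19 and 0.78. Among 12 genes of the nuclear lamina and envelope, 0, 4 and 5 were at least 2-fold higher and 0, 2 and 1 lower. B-type lamins and the lamin B receptor were among the higher ones, with Lmnb1 at 2076, 3788 and 4518 in H-RasV12, myr-Akt and c-Myc cells, against 1705 in non-transformed cells and Lbr at 3917, 7444 and 6624 in H-RasV12, myr-Akt and c-Myc cells, against 2911 in non-transformed cells. Lmna had 0.37, -0.04 and -0.05. Syne1, which links the envelope to the cytoskeleton, was under the floor in myr-Akt and c-Myc cells, at 842.4, 90.5 and 70.6 in H-RasV12, myr-Akt and c-Myc cells, against 564.0 in non-transformed cells.

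Proliferation genes moved with the members. The 12 measured genes, among them Mki67, Top2a and the MCM helicase subunits, were all higher in each transformed culture, with log2 differences of 0.37 to 0.68 in H-RasV12, 0.47 to 1.18 in myr-Akt and 0.43 to 1.14 in c-Myc cells. Their medians were 0.40, 0.77 and 0.68, beside 0.45, 0.63 and 0.59 for the nucleoporins and receptors. The summed signal of the 12 genes was 78351, 93179 and 90754 in H-RasV12, myr-Akt and c-Myc cells, against 57572 in non-transformed cells, and 12 of 12 were above the floor on each array. Their part in the members' differences was not tested. Blood markers were under the floor except Cd68, which was at most 131.4, and the 4 endothelial markers were under it on all arrays.

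**Figure D5:**
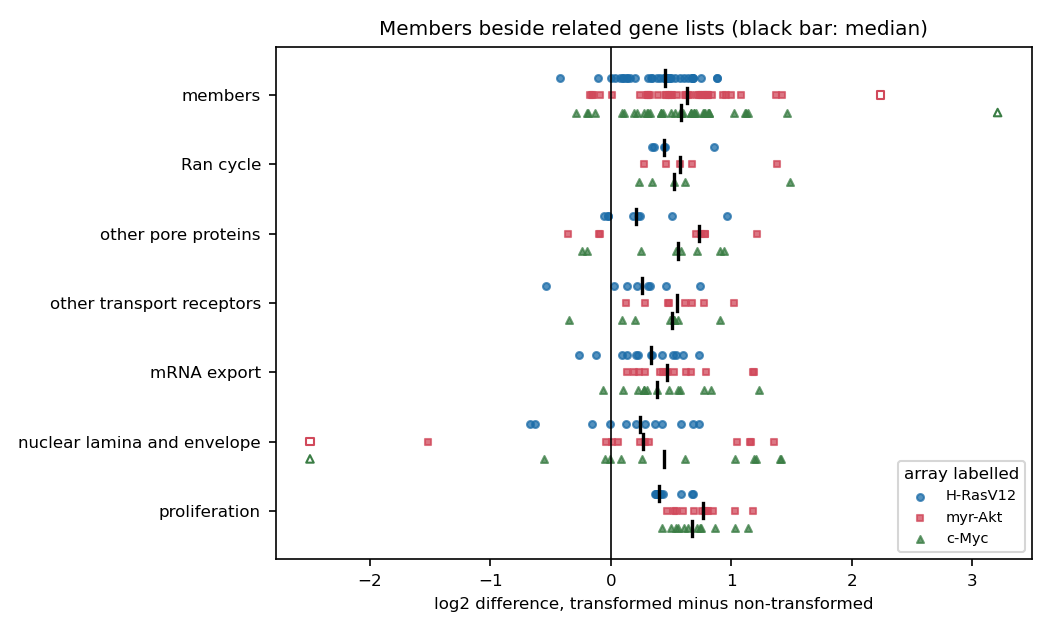
Log2 difference from non-transformed cells (x axis) of each measured gene in the members and in 6 related lists (y axis), with 1 marker for each transformed culture, open markers for bounds and black bars for medians. The members' medians of 0.45, 0.63 and 0.59 lie near those of proliferation genes, at 0.40, 0.77 and 0.68.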

How the data were processed

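The authors deposited 1 linear intensity per probe set and array, computed by MAS5 according to the submitters' processing notes. The sources used here state neither its version nor any filter, and give no detection calls. Each array's mean after trimming 2% at each end was 500.003, so the deposited values had been scaled. From these, signals were set to a floor of 20% of the trimmed mean and log2 was taken. Of 45101 probe sets, 64 controls were left out, 34945 had 1 gene symbol in the platform annotation, 932 had several and 9160 none, the last 2 kinds naming no gene. The brightest probe set by mean stood for each gene, which for 11 members ends in _s_at, _x_at or _a_at and may bind more than 1 transcript. Signals of different probe sets were compared only to pick the brightest and in sums over marker lists, and probe brightness is no measure of RNA level between genes. Probe-set fluorescence gives no counts, and the number of arrays, 1 a group, limits the precision. No scan date or batch is given, so batch and group cannot be told apart.

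The 4 arrays were grouped by their labels. Differences are log2 of the first group minus the second, in 6 comparisons without a test, counted at 2-fold and 1.5-fold over all 10679 genes above the floor on at least 1 array. Counting was tested on simulated data. Every member is described by role, with values on each array for members past 2-fold, the brightest of each role, importin alpha and the exportins. The members and lists were chosen with earlier results of these data known. Alternatives changed the floor, the scaling, the probe-set choice, the filter and the fold mark. Python 3.11.15, pandas 2.3.3 and scipy 1.17.1 were used.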

Additional observations from a re-analysis of the deposited data

How the results depend on the processing

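Settings were changed singly, and 145 of 156 values for the 6 comparisons stayed within 1.5 times the reported count or 0.1 of the reported median. The median log2 difference from non-transformed cells ranged from 0.42 to 0.47 for H-RasV12, 0.56 to 0.67 for myr-Akt and 0.55 to 0.60 for c-Myc cells, and no value changed sign. With a 1.5-fold mark, 9, 21 and 19 members were higher in H-RasV12, myr-Akt and c-Myc cells. With that mark 3 were lower in H-RasV12 than in myr-Akt cells, and 1 was lower in myr-Akt than in c-Myc cells. With the mean over probe sets, 3 members rather than 6 were 2-fold higher in c-Myc cells, since dim probe sets enter the mean. Lower in H-RasV12 than in c-Myc cells was 1 member rather than 2 with a pseudocount, with scaling to the median, with the mean over probe sets or with genes above the floor on all 4 arrays. The last setting drops Nup210, and left 0 members lower in H-RasV12 than in myr-Akt cells. Nup210 is a bound that follows the floor, with 3.24 and 4.21 on the log2 scale in myr-Akt and c-Myc cells at 10% of the trimmed mean and 1.24 and 2.21 at 40%.

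Counts over all genes moved more. In H-RasV12 against non-transformed cells 136 genes were 2-fold higher with a pseudocount and 104 with genes above the floor on all arrays, against 222, and 424 were lower with the last, against 670. For myr-Akt 891 genes were lower with it, against 1353. For c-Myc 298 were higher with a pseudocount, against 472, and 770 were lower with genes above the floor on all arrays, against 1211. In H-RasV12 against c-Myc cells 577 were higher with that filter, against 936, and in H-RasV12 against myr-Akt cells 637, against 999. In myr-Akt against c-Myc cells 106 were higher and 140 lower with a floor at 40%, and 133 lower with a pseudocount, against 163 and 215. No paired analysis was possible because each group holds 1 array, so no array was left out. Signal over background limits what these arrays show of Nup210, Nup210l and Kpna7.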
